A study of Mus musculus with 42 samples.

Results

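Cultured hippocampal neurons were set against the embryonic hippocampus from which they were taken. Members were chosen by the label of each array, and 22 of the 42 arrays of the series belonged to this comparison, 10 of hippocampal cultures and 12 of hippocampal tissue. The cultures were 5 *Fmr1*KO and 5 wild-type (WT) samples, and the tissue was 6 *Fmr1*KO and 6 WT samples. All came from untreated C57BL/6 mice, as RNA pooled from the embryos of 1 litter, so the spread between arrays is a spread between pools and not between single embryos. The *Fmr1*KO line carries a constitutive loss of the fragile X gene Fmr1, and genotype enters here as a covariate. By the study's methods glia were a minority of the cultured cells. Tissue was dissected at 17 to 18 days post-conception and kept in an RNA stabilizer. Cells of embryos of the same age were dissociated, seeded in Neurobasal medium with B27 supplement and held for 14 days in vitro before they were frozen. The cultures thus differed from tissue in time, dissociation, medium and the way the material was preserved, and these cannot be told apart. Mouse ID, read here as the litter, tied a culture to a tissue array in 10 litters (5 *Fmr1*KO, 5 WT). Among the WT litters is the ID NT, which is not a number and whose meaning is not given in the sources used here.

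The late embryonic hippocampus is a mixed and still growing tissue. Radial glia and intermediate progenitors divide in the ventricular zone and the forming dentate gyrus, newborn neurons migrate into the CA fields, and Cajal-Retzius cells line the hippocampal fissure, all of it threaded by vessels, microglia, meninges and choroid plexus. In dissociated culture the neurons that survive plating extend axons and dendrites and build synapses over the following weeks. Astrocytes arise from progenitors carried over, while the blood supply and the layering are lost. In RNA from bulk samples, fewer cells of a type and less RNA per cell cannot be told apart.

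Each value is a log2 signal of a microarray probe, with 1 probe standing for each of 18193 genes. A gene was called when its mean differed at least 2-fold at an adjusted p under 0.05 in limma, with the mean of the higher kind of sample above background. Probes for olfactory receptor, vomeronasal receptor and keratin-associated genes, 123 in all, were picked by name and taken as silent. Whether brain uses any of these genes was not checked. Background was set at 5.06 log2, the 95th percentile of the means of these probes. Where the lower mean lay below it, the fold is given as a bound measured from it. Signals of different probes cannot be compared with each other, so each comparison below is of 1 probe between samples.

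Fmr1 was looked at first, since it tests the labels. On chromosome X (68678536 to 68717963, GRCm38.p6), it lay at 7.88, 8.04 and 8.10 log2 (lowest, median and highest array) in *Fmr1*KO culture and at 8.69, 8.96 and 9.17 in WT culture. In tissue it lay at 8.92, 8.97 and 9.18 in *Fmr1*KO and at 9.80, 9.94 and 10.07 in WT. Every *Fmr1*KO array was below every WT array of its kind, as labelled. Where the probe lies relative to the altered part of the gene is not given in the sources used here. Culture was lower than tissue by 0.98 log2 with an SE of 0.052 (adjusted p = 4.68e-14), and lower in 10 of 10 litters.

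The hippocampal label also held. Wnt8b, a ligand of the cortical hem at the hippocampal border, ranged from 8.54 to 10.52 in hippocampal tissue and from 7.46 to 9.58 in hippocampal culture, but from 3.46 to 5.20 in cortical tissue and from 3.60 to 4.92 in cortical culture. Array medians of the 22 arrays ran from 5.42 to 5.54. One culture, WT litter 2644, had the highest mean signal of the 10 cultures on 17 of the 48 gene lists used below and the lowest on another 17, and WT litter 3569 had the highest on 9. Without both of them 1509 genes were called higher and 1968 lower, against 1517 and 1979 with all arrays.

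In culture 1517 genes (8.34% of those tested) were at least 2-fold higher than in tissue and 1979 (10.9%) at least 2-fold lower. Counts of called list members below are to be read beside these shares. Differences of 4-fold or more numbered 438 and 457, and those of 16-fold or more 34 and 11. The arrays did not overlap for 1412 of the higher and 1920 of the lower genes. With these included, 1488 and 1960 had the same sign in 10 of 10 litters. Without the fold limit 6551 genes (36%) passed upward and 6573 (36.1%) downward, and the median over all genes was 0.02 log2. Rescaling every array to 9 reference genes moved that median to 0.20 and the share of the 2-fold calls that were higher from 43.4% to 55.9%. Of 1747 called genes with other probes above background, the other probes all had the same sign in 1627.

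**Figure D1:**
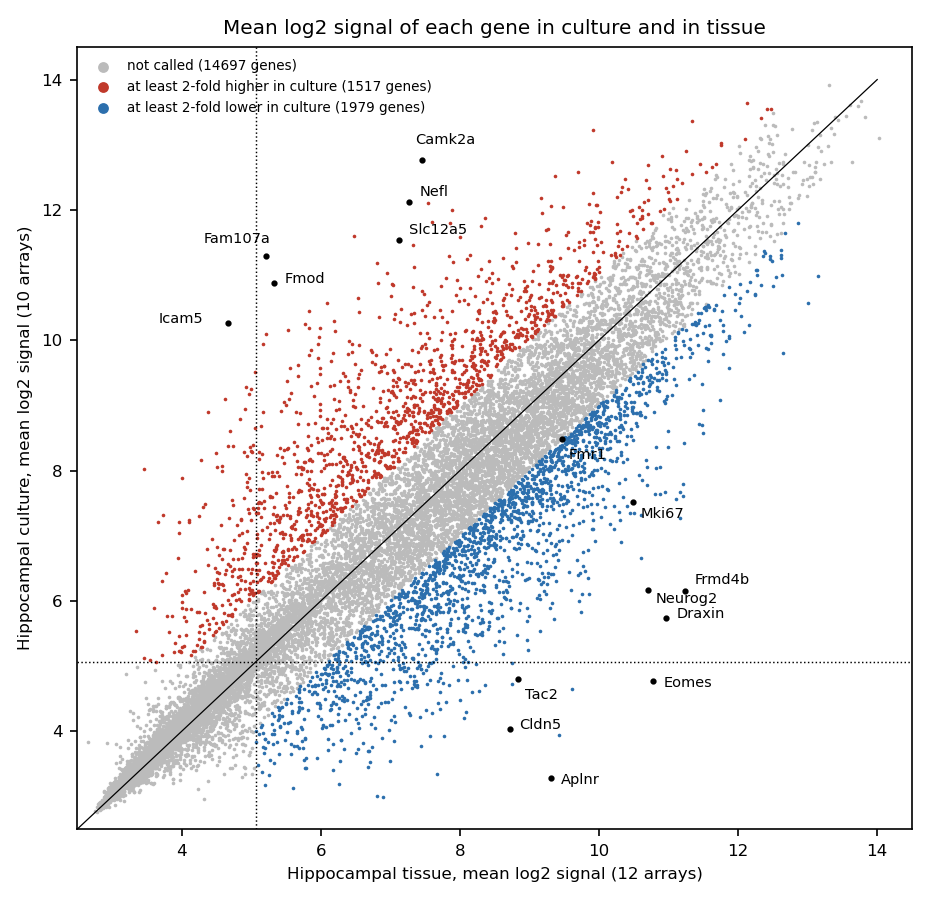
Each point is a gene, with its mean log2 signal over the 12 tissue arrays on the x axis and over the 10 culture arrays on the y axis. Red and blue points were called higher (1517) and lower (1979) in culture, the diagonal marks equal signal and the dotted lines the background of 5.06, below which Eomes, Cldn5, Aplnr and Tac2 lay in culture and Icam5 in tissue.

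Genes of cell division were lower in culture than in tissue almost throughout. Of 56 measured genes of the cell cycle and DNA replication (58 listed), 49 were called lower and 1 higher, and the median was -2.56 log2. For 51 of the 56 every culture lay below every tissue array. Among all 18193 genes, every culture lay below every tissue array for 4105 and above every one for 2732. The mean signal of the 56 genes ran from 8.28 to 8.81 log2 (median 8.65) in tissue and from 5.98 to 7.04 (median 6.25) in culture. No culture reached the lowest tissue array, and the highest culture was WT litter 2644. Mki67, the proliferation antigen Ki-67 that coats mitotic chromosomes, ranged from 10.05 to 10.73 (median 10.56) in tissue and from 6.75 to 9.01 (median 7.49) in culture, 7.83-fold lower (-2.97 ± 0.192, log2 difference ± SE, adjusted p = 1.83e-12). Top2a, the topoisomerase that untangles replicated DNA, was 8.57-fold lower (tissue 10.07 to 10.63, culture 6.54 to 8.75). Cdk1, the kinase that drives entry into mitosis, was 7.2-fold lower (tissue 9.05 to 9.58, culture 5.64 to 8.01). None of the 3 overlapped between culture and tissue, so each was necessarily lower in 10 of 10 litters too.

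The promoters of these 3 genes are shown because the genes of the list moved together and promoters of such genes are known for a few short elements. Each is a window of 300 bases from RefSeq (GRCm38.p6), 250 before the transcription start and 50 after it, 5′ to 3′ on the gene's own strand, which is the minus strand for all 3. Capitals mark every match, on either strand, to TTTGAA (the CHR, a cell cycle homology region), to CCAAT (the box bound by NF-Y), or to TTTCCCGC or TTTGGCGC (forms of the E2F site).
Mki67, chr7:135716330-135716629: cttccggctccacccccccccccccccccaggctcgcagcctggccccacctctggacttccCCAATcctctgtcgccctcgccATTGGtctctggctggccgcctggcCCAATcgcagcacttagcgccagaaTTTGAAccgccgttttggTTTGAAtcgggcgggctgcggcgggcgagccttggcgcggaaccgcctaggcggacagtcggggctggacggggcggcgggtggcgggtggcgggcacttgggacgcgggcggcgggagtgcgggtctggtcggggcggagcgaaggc
Top2a, chr11:99024140-99024439: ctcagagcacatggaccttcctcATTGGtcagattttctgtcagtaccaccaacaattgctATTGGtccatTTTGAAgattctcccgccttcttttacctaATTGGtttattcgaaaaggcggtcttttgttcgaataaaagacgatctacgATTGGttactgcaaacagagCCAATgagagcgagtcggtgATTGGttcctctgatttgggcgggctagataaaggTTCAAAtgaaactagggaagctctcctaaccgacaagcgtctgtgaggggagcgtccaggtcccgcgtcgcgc
Cdk1, chr10:69352863-69353162: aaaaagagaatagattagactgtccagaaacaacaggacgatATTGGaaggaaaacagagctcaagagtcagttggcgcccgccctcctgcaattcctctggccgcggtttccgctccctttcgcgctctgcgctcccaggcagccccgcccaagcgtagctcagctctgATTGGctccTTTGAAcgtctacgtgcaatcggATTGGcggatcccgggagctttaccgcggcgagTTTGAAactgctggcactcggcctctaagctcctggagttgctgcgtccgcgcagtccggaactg

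These 3 windows held 5, 8 and 5 matches, all to TTTGAA or CCAAT and none to the E2F forms. Of the 56 list genes, 43 were matched to 44 windows. TTTGAA was in 36.36% of these windows and in 17.89% of all 32851 promoter windows, CCAAT in 75% against 37.41%, and both together in 36.36% against 6.953%. An E2F form was in 22.73% against 1.565%. Both strands were searched, so that a match on the other strand stands in the lines above as its reverse complement, and a match counted even where it shared letters with a match to another motif. These shares describe letters in a window and carry no test.

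Ube2c, which loads ubiquitin on mitotic cyclins, ranged from 9.43 to 10.19 in tissue and from 5.26 to 7.64 in culture (13.4-fold lower, adjusted p = 2.68e-14), and Cenpa, the histone of the centromere, from 9.33 to 9.96 and from 5.08 to 7.35 (13.1-fold lower). Bub1, a kinase of the spindle checkpoint, was 11.8-fold lower, and Mcm5, a subunit of the replicative helicase, 9.88-fold lower (tissue 9.26 to 10.03, culture 6.04 to 6.94). The 1 member that was higher was Ccnd1, the cyclin that answers growth signals in G1, at 9.53 to 11.44 in culture against 8.44 to 9.29 in tissue (1.32 ± 0.177, adjusted p = 5.42e-07). Its arrays did not overlap, and both other probes of Ccnd1 were higher too.

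Inhibitors of the cell cycle did not move together. Of 9 measured, 2 were called higher and 3 lower, with a median of -0.61. Cdkn1a, which encodes p21, ranged from 8.36 to 10.38 in culture and from 7.2 to 7.91 in tissue (2.84-fold higher, adjusted p = 1.61e-08). Cdkn2b, which encodes p15, was at least 4.51-fold higher (culture 6.47 to 8.10, tissue 4.53 to 5.32). Cdkn1c, which encodes p57 and is imprinted, went the other way, from 9.35 to 10.28 in tissue to between 5.58 and 8.65 in culture (8.09-fold lower, adjusted p = 1.20e-10). Rb1 and Cdkn2c were 2.28-fold and 2.58-fold lower, and Cdkn1b, which encodes p27, had a difference of -0.61 ± 0.074 and was not called.

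Transcription factors of excitatory neurogenesis were the next clear group. Of 19 measured (21 listed), 13 were called lower and 0 higher, with a median of -1.58, and the mean of the list ran from 9.19 to 9.48 in tissue and from 7.35 to 7.53 in culture. Eomes (Tbr2), which marks intermediate progenitors, ranged from 10.45 to 11.01 (median 10.86) in tissue and from 4.56 to 4.97 (median 4.75) in culture. All cultures were at background, which makes Eomes at least 52.6-fold lower (adjusted p = 1.88e-25), the largest bound of any gene that fell. Neurog2, the proneural factor that commits progenitors to a glutamatergic fate, ranged from 10.46 to 11.08 in tissue and from 5.68 to 6.97 in culture (23.2-fold lower, adjusted p = 4.18e-18). Insm1, a zinc finger factor of basal progenitors, was 15-fold lower (tissue 9.49 to 10.08, culture 5.61 to 6.16), and Neurod4 was at least 3.82-fold lower. Pax6 and Tbr1, which stand at the start and the end of this sequence in cortex, were 5.48-fold and 5.61-fold lower, and neither overlapped between culture and tissue.

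Genes that pattern the hippocampal primordium were lower as well. Of 19 listed and measured, 12 were called lower and 0 higher (median -1.26). Lhx9, a LIM homeobox gene of the medial pallium, ranged from 9.28 to 10.24 in tissue and from 5.27 to 6.82 in culture (12.5-fold lower, adjusted p = 1.23e-16). Emx2, without which the dentate gyrus does not form, was 6.76-fold lower (tissue 9.81 to 10.50, culture 6.97 to 7.66). Lef1, a nuclear partner of Wnt signalling, was at least 4.27-fold lower, and Lhx2 and Dmrta2 were 2.70-fold and 3.75-fold lower. Wnt8b overlapped broadly (-0.70 ± 0.267, adjusted p = 0.0250, lower in 6 of 10 litters), was not called at 2-fold, and had an adjusted p of 0.132 when litters were blocked.

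Radial glia are the stem cells that line the ventricle. Of 13 markers 5 were called lower and 0 higher, with a median of -0.64. Hes5, a target of Notch, ranged from 7.74 to 8.55 in tissue and from 4.42 to 5.03 in culture, at least 8.22-fold lower (adjusted p = 7.11e-19). Sox2 and Sox9 were 2.61-fold and 2.05-fold lower, and Tnc 3.57-fold. The filament and lipid-binding genes that progenitors share with astrocytes were lower too, but by less than 2-fold. Vim spanned 10.80 to 13.26 in culture and 12.42 to 12.77 in tissue (-0.64 ± 0.168, adjusted p = 0.00184), Nes had a difference of -0.35 ± 0.109, and Fabp7 one of -0.66 ± 0.069. The highest Vim value was that of WT litter 2644, and without it the difference was -0.78.

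Markers of newborn neurons were split. Of 22 measured, 6 were called lower and 1 higher (median -0.29). Without the fold limit 13 passed downward and 6 upward, against 36.1% and 36% of all genes. Sox11 and Sox4, factors of early neuronal differentiation, were 7.13-fold and 4.48-fold lower, with Sox11 at 12.44 to 12.83 in tissue and 9.05 to 10.48 in culture. Igfbpl1 was 11.6-fold lower (tissue 10.87 to 11.26, culture 6.33 to 8.49). Dcx, the microtubule protein of migrating neurons, was 3.48-fold lower (tissue 11.63 to 12.17, culture 8.90 to 10.78, adjusted p = 7.85e-10). Tubb3 and Stmn1, which stay on in grown neurons, had smaller differences of -0.74 ± 0.128 and -0.90 ± 0.064. The 1 gene called higher, Dclk1, was 2.08-fold higher, but only 5 of its 8 other probes had that sign.

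Cajal-Retzius cells, the transient Reelin-secreting neurons of the marginal zone, had lower markers in culture. Of 9 markers 7 were called lower and 1 higher, with a median of -2.21, and the list mean ran from 7.89 to 8.26 in tissue and from 5.97 to 6.61 in culture. Lhx1 ranged from 6.97 to 7.97 in tissue and lay at background in culture, at least 5.69-fold lower (adjusted p = 2.81e-18). Trp73, which encodes p73, ranged from 7.35 to 8.21 in tissue and from 4.66 to 5.12 in culture, at least 6.31-fold lower. Nhlh2 was 8.36-fold lower, Ebf3 at least 3.87-fold, and Lhx5 at least 1.64-fold. Reln itself was less reduced, from between 11.94 and 12.45 in tissue to between 9.52 and 11.53 in culture (2.94-fold lower, adjusted p = 1.17e-08), and some interneurons also make it. The member that was higher was Calb2 (calretinin), also an interneuron gene, at 3.33-fold.

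Markers of the 3 hippocampal fields did not follow 1 direction. For CA1, 2 of 5 measured markers were called higher and 1 lower. Wfs1 ranged from 8.55 to 9.07 in culture and from 6.13 to 6.62 in tissue (5.66-fold higher, adjusted p = 3.13e-18), and Man1a was 4.05-fold higher, while Mpped1 was 7.55-fold lower (tissue 9.05 to 9.64, culture 5.76 to 7.37). For CA3, 2 of 7 were higher and 2 lower, with Grik4, a kainate receptor subunit, 3.59-fold and Spock1 5.98-fold higher and Bok 4.76-fold and Socs2 3.70-fold lower. For the dentate gyrus, 2 of 11 markers lay at background in both kinds of sample. Of the 11, 2 were higher (18.2%) and 1 lower (9.09%), against 8.34% and 10.9% of all genes. That 1 was Prox1, the factor that specifies granule cells, at 8.01 to 9.72 in tissue and 5.6 to 6.41 in culture (7.97-fold lower, adjusted p = 7.87e-15). Dsp had a difference of -0.01 ± 0.195, and C1ql2 one of 0.49 ± 0.074, both with signals close to background.

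Genes of the synapse were higher in culture, on both its sides. Of 20 measured genes of presynaptic vesicles and release (22 listed), 17 were called higher and 0 lower, with a median of 2.04, and the list mean ran from 7.89 to 8.34 in tissue and from 9.68 to 10.34 in culture. Sv2b, a vesicle glycoprotein, ranged from 11.19 to 11.81 (median 11.46) in culture and from 7.26 to 7.46 (median 7.31) in tissue, 17.6-fold higher (4.14 ± 0.063, adjusted p = 2.68e-23). Syn1 and Syn2, the synapsins that tether vesicles, were 5.19-fold and 6.76-fold higher. Syp, synaptophysin, was 6.34-fold higher (culture 9.15 to 10.13, tissue 6.37 to 7.27), and Syt1, the calcium sensor of release, 4.70-fold. Rims1, of the active zone, was 6.65-fold higher (culture 9.99 to 10.81, tissue 7.25 to 8.30). The arrays of these 6 did not overlap, so each was necessarily higher in 10 of 10 litters too.

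On the postsynaptic side 14 of 18 measured scaffolds and kinases (20 listed) were called higher and 0 lower, with a median of 1.51. Camk2a, the kinase that makes up much of the postsynaptic density and serves long-term potentiation, ranged from 12.25 to 13.12 (median 12.78) in culture and from 6.81 to 8.69 (median 7.33) in tissue. It was 39.6-fold higher (5.31 ± 0.174, adjusted p = 9.77e-18), and its 5 other probes above background were all higher. Dlg4, which encodes PSD-95, was 3.55-fold higher (culture 8.44 to 9.87, tissue 6.98 to 7.55), and Shank3 7.06-fold (culture 8.72 to 9.56, tissue 5.94 to 6.66). Psd3 was 6.21-fold higher and Dlgap2 at least 6.24-fold. Icam5 (telencephalin), an adhesion molecule of telencephalic dendrites, ranged from 9.84 to 10.93 in culture and from 4.35 to 5.07 in tissue, at least 36.7-fold higher, the largest bound of any gene that rose.

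Glutamate receptor genes rose unevenly. Of 11 AMPA receptor subunits and auxiliary proteins 7 were called higher and 0 lower (median 1.22). Gria3 was 4.54-fold, Gria1 3.41-fold and Gria2 2.16-fold higher, with Gria1 at 10.75 to 11.50 in culture and 8.89 to 9.78 in tissue. Among the auxiliary proteins Shisa9 and Shisa6 were 4.61-fold and 4.30-fold higher. Of 6 NMDA receptor subunits measured (7 listed), 2 were called, both higher (median 0.74). Grin2b, the subunit of young synapses, had a median of 9.63 in culture and 7.27 in tissue without overlap (4.97-fold higher, adjusted p = 6.08e-13), and Grin3a was at least 2.09-fold higher. Grin2a, the subunit that gains ground as synapses mature, stayed below background in all 22 arrays, at 3.84 to 4.54 in culture and 3.53 to 3.77 in tissue, so no fold is given.

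Of 9 measured metabotropic receptor and Homer genes (10 listed), 2 were called higher and 1 lower. Grm5, which couples to Gq and was the most raised of the group, ranged from 10.32 to 10.94 in culture and from 7.14 to 8.80 in tissue (5.86-fold higher, adjusted p = 5.68e-13), and Grm7, a presynaptic autoreceptor, was 4.13-fold higher. Grm3, found on astrocytes and progenitors as well as neurons, was 2.67-fold lower (tissue 8.19 to 9.23, culture 6.88 to 7.81). Homer genes were not called, and the list of 9 had a median of 0.51.

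Inhibitory transmission showed the same mix of gains and losses by subunit. Of 9 GABA-A receptor subunits measured (12 listed), 4 were called higher and 1 lower. Gabra5, the extrasynaptic subunit typical of hippocampus, ranged from 9.87 to 10.74 in culture and from 6.04 to 8.12 in tissue (3.32 ± 0.212, adjusted p = 1.43e-12). Gabrb1 and Gabrb2 were 5.91-fold and 4.25-fold higher, without overlap, and Gabra2 2.14-fold with overlap. Gabrg1 was 2.26-fold lower, with signals of 5.95 to 6.77 in tissue and 4.59 to 5.97 in culture.

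Of 4 cation chloride cotransporters measured (5 listed), 2 were called higher and 1 lower (median 0.28). The 2 best known for setting the sign of GABA responses moved apart, though only the first was called. Slc12a5 (KCC2), which extrudes chloride from mature neurons, ranged from 11.27 to 11.78 (median 11.52) in culture and from 6.31 to 8.15 (median 7.15) in tissue, 21.2-fold higher (4.41 ± 0.185, adjusted p = 6.46e-16). Slc12a2 (NKCC1), which imports it, ranged from 8.99 to 10.33 in culture and from 10.32 to 10.77 in tissue, with a difference of -0.86 ± 0.122 that passed the test but not the 2-fold limit. The arrays of Slc12a5 were separated by more than 3 log2 units, and those of Slc12a2 just touched.

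The vesicular glutamate transporters moved apart too. Slc17a7 (VGLUT1), the form of mature hippocampal neurons, ranged from 6.55 to 8.32 in culture and from 4.48 to 5.08 in tissue, at least 5.31-fold higher (adjusted p = 4.17e-14). Slc17a6 (VGLUT2), the form prominent in embryonic forebrain, ranged from 9.27 to 9.97 in tissue and from 6.23 to 8.40 in culture (4.67-fold lower, adjusted p = 1.54e-11). Neither gene overlapped between culture and tissue, so each necessarily kept its sign in 10 of 10 litters. Among uptake transporters Slc1a2 (GLT-1), the main glutamate carrier of astrocytes, was 3.76-fold higher (median 12.84 in culture, 10.97 in tissue), the neuronal Slc1a1 3.68-fold, and the GABA carrier Slc6a11 6.59-fold. Slc32a1, which loads GABA into vesicles, was 2.67-fold higher with overlapping arrays.

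Voltage-gated channels followed the synapse. Of 13 potassium channel genes measured (17 listed), 9 were called higher and 0 lower (median 1.88). Kcnq5, which carries part of the M current, ranged from 9.33 to 10.46 (median 10.17) in culture and from 4.69 to 5.99 (median 5.22) in tissue, 29.3-fold higher (4.87 ± 0.149, adjusted p = 3.29e-18). Kcnma1, the large calcium-activated channel, was 15.3-fold, Kcna1 13.8-fold and Kcna4 at least 9.37-fold higher. Of 7 sodium channel genes 4 were called higher and 0 lower (median 2.05). The auxiliary subunit Scn2b was 12-fold higher (culture 9.48 to 10.61, tissue 5.99 to 6.75), and the pore subunits Scn2a, Scn8a and Scn1a 8.90-fold, 5.48-fold and 4.14-fold.

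Calcium channels were raised less. Of 13 measured (15 listed), 7 were called higher and 1 lower, with a median of 1.15. Cacna1a and Cacna1b, the P/Q and N types that drive release, were 3.60-fold and 3.28-fold higher, and Cacna1c, an L type, 2.49-fold. The subunit Cacna2d2 went the other way, from between 8.87 and 9.50 in tissue to between 6.54 and 7.81 in culture (3.65-fold lower, adjusted p = 1.59e-11). No array of Cacna2d2 overlapped.

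**Figure D2:**
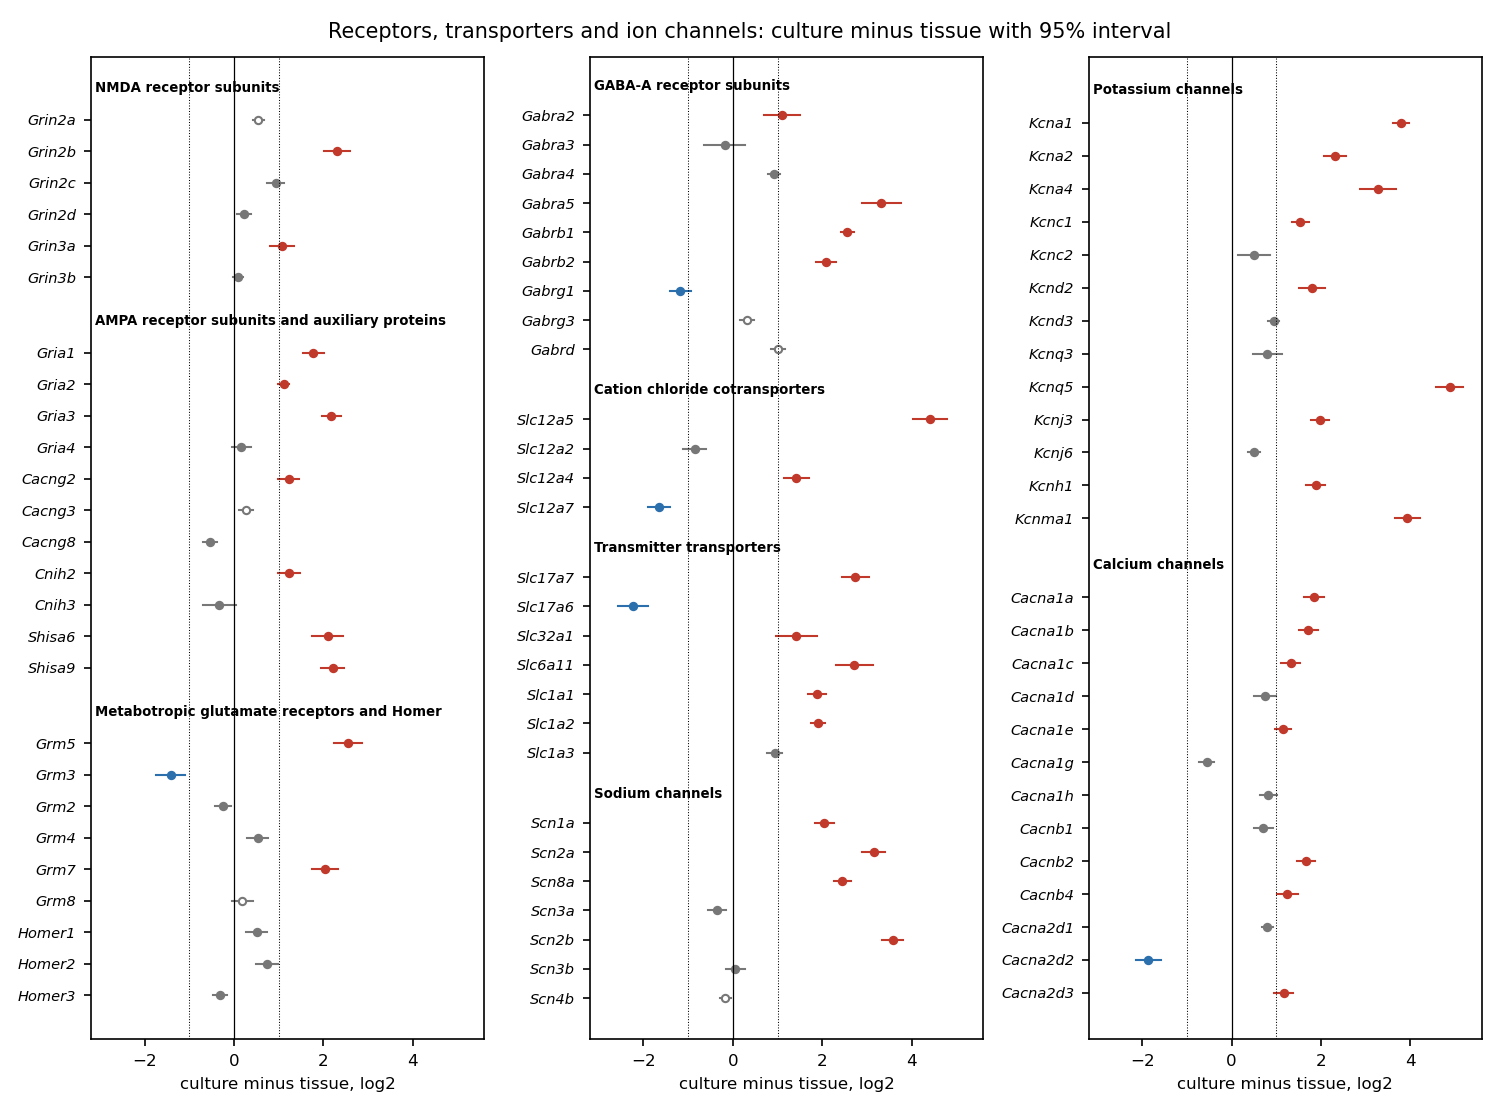
Points are the culture minus tissue differences (log2, x axis) of the 79 measured genes of 9 receptor, transporter and channel lists over 22 arrays, with their 95% intervals. Red and blue points were called higher and lower, grey points were not called, open points lay at background in both kinds of sample, and dotted lines mark 2-fold. Slc12a5 and Kcnq5 stand farthest to the right, and Slc17a6 and Cacna2d2 farthest to the left.

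Genes that neuronal activity induces within minutes to hours were higher in culture but with a wide spread. Of 18 measured, 11 were called higher and 0 lower (median 1.33). The list mean stayed between 5.99 and 6.2 in all 12 tissue arrays and ran from 7.15 to 9.49 in culture, where WT litter 3569 was highest and *Fmr1*KO litter 4236 next at 8.20. Egr1 ranged from 9.87 to 11.60 in culture and from 5.74 to 6.42 in tissue (22.3-fold higher, adjusted p = 4.41e-17), and Egr3 from 8.78 to 11.38 and from 4.73 to 6.98 (24.7-fold higher). Fos was 7.05-fold higher (culture 7.91 to 10.77, tissue 5.95 to 6.68). Arc, which shapes AMPA receptor traffic, had 1 culture far above the rest. Arc ranged from 5.22 to 8.85 (median 5.67) in culture and from 4.71 to 5.45 in tissue (1.04 ± 0.296, adjusted p = 0.00354), and without WT litter 3569 the difference was 0.74, under the 2-fold limit. 

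Of 6 measured neurotrophin and receptor genes (9 listed), 3 were called higher and 0 lower (median 1.03). Bdnf, a neurotrophin released by active neurons, ranged from 9.69 to 12.81 in culture and from 6.54 to 7.57 in tissue (14.2-fold higher, adjusted p = 1.61e-11). Its receptor Ntrk2 (TrkB) was 4.12-fold higher and the sorting receptor Sort1 2.24-fold. Of 15 neuropeptide and granin genes 6 were called higher and 1 lower (median 0.61). Vgf, a granin induced by neurotrophins, was 24.4-fold higher (culture 9.01 to 11.97, tissue 5.20 to 6.91), Scg2 17.3-fold (culture 11.42 to 13.10, tissue 7.48 to 8.31) and Chgb 4.29-fold. The 1 called lower was Nts, neurotensin, at least 1.84-fold, with 4.68 to 8.91 in tissue. Npy had a difference of 0.24 ± 0.183 (adjusted p = 0.261), and Cck spanned 6.6 to 11.02 in culture and was not called.

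Interneuron markers went both ways. Of 21 measured (23 listed), 5 were called higher and 5 lower, and 6 lay at background in both kinds of sample. Those called higher were Gad1 and Gad2, which make GABA, Slc32a1, Sst and Calb2. Gad1 ranged from 10.42 to 11.39 in culture and from 7.48 to 9.78 in tissue (4.44-fold higher, adjusted p = 2.03e-09), Gad2 was 3.51-fold higher, and Sst, somatostatin, 2.88-fold with overlap and in 8 of 10 litters. Those called lower were the transcription factor genes Dlx1, Dlx2, Dlx5, Sp8 and Sox6. Dlx1 ranged from 7.47 to 9.55 in tissue and from 4.59 to 7.08 in culture (6.68-fold lower, adjusted p = 3.17e-09), Dlx2 and Dlx5 were 3.52-fold and 2.66-fold lower, and Sp8 was at least 4.03-fold lower. Pvalb and Vip lay below background in both.

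Of 9 genes of the mature cytoskeleton 4 were called higher and 0 lower (median 0.72, or 2.20 with the probe of smallest p for each gene). Nefl, the light neurofilament chain, ranged from 11.74 to 12.86 (median 12.04) in culture and from 6.28 to 8.31 (median 7.29) in tissue, 28.9-fold higher (4.85 ± 0.188, adjusted p = 1.78e-16). Nefh was at least 9.33-fold higher, Nefm 4.58-fold and Map1a 6.18-fold. Tuba4a, an alpha tubulin outside the list, was 23.7-fold higher, at 11.51 to 12.36 in culture and 7.38 to 7.85 in tissue.

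Subunits of BAF chromatin remodelling complexes were mostly lower in culture. Of 18, 15 passed downward and 1 upward without the fold limit, against 36.1% and 36% of all genes. Of the 18, 5 were called lower and 0 higher (median -0.83). These included Smarce1 (3.59-fold lower, tissue 9.55 to 9.98, culture 7.72 to 8.22) and Ss18 (3.06-fold). The progenitor subunit Actl6a had a difference of -0.97 ± 0.062, and its neuronal counterpart Actl6b one of -0.20 ± 0.125 (adjusted p = 0.159). The fall of Ss18l1 (-1.13 ± 0.060) was not shared by its 1 other probe above background. Splicing regulators went both ways, with 2 of 18 called higher and 7 lower. Mbnl2 and Celf4 were 4.02-fold and 2.92-fold higher, and Nova1 was 6.18-fold lower (tissue 8.88 to 9.57, culture 6.46 to 6.89). Ptbp2, which holds neuronal exons in check, was 2.39-fold lower, whereas the fall of Ptbp1 (-1.27 ± 0.113) was not seen in its 1 other probe.

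Among fetal timing genes Igf2bp1 was at least 3.33-fold lower, with 2 of 3 other probes alike, while Hmga2 and Lin28b lay at background in both. The list of 10 had a median of -0.02, which turned positive under rescaling to reference genes. Of 15 imprinted genes 2 were called higher and 5 lower. Igf2, the fetal growth factor, ranged from 7.97 to 8.45 in tissue and from 4.95 to 5.56 in culture (7.75-fold lower, adjusted p = 2.32e-20), and Grb10, which restrains insulin signalling, was 3.09-fold lower. Meg3, a maternally expressed long RNA, was 2.83-fold higher in culture, with 10 of 10 other probes alike.

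Astrocyte genes were higher in culture. Of 25 markers 13 were called higher and 1 lower (median 1.04), and the list mean ran from 7.47 to 7.95 in tissue and from 8.44 to 8.86 in culture. Aqp4, the water channel of astrocyte endfeet, ranged from 8.17 to 9.64 in culture and from 3.67 to 5.31 in tissue, at least 14.3-fold higher (adjusted p = 1.98e-16). Gfap, the astrocytic filament, ranged from 8.25 to 9.95 in culture and from 5.35 to 6.68 in tissue (7.48-fold higher, adjusted p = 8.12e-12). Acsbg1 and Sparcl1 were 6.06-fold and 5.10-fold higher, and Aldh1l1 2.05-fold with overlap. The 1 called lower was Sox9, also on the radial glia list. Gja1, the connexin shared with radial glia, had a difference of 0.23 ± 0.135 (adjusted p = 0.139).

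Oligodendrocyte markers were mostly low and gave no common direction, with 1 of 17 called higher, 2 lower and 9 at background in both kinds of sample. Olig1 stood apart, at 10.49 to 11.23 in culture and 7.06 to 8.70 in tissue (8.86-fold higher, adjusted p = 1.98e-15), while Olig2 had a difference of -0.40 ± 0.154 near background. Pdgfra, the receptor of oligodendrocyte progenitors, ranged from 7.33 to 8.40 in tissue and from 4.96 to 6.01 in culture (4.89-fold lower). Mbp was 2.24-fold lower and Sox10 differed by -0.06 ± 0.052 (adjusted p = 0.323). The list median of -0.06 turned to 0.12 under rescaling to reference genes.

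Microglial genes were lower in culture, many of them at background there. Of 23 markers measured (24 listed), 11 were called lower and 0 higher, and 5 lay at background in both kinds of sample. The median was -1.12, and the list mean ran from 5.58 to 6.16 in tissue and from 4.51 to 4.81 in culture. C1qa, of the complement cascade, ranged from 6.85 to 7.61 in tissue and from 3.90 to 4.5 in culture, at least 4.68-fold lower (adjusted p = 9.67e-18). Mpeg1 was at least 5.29-fold lower, Ctss at least 3.97-fold and Cx3cr1 at least 2.5-fold. In every culture array C1qa, C1qb, Ctss, Cx3cr1, Mpeg1 and Aif1 were below background. Csf1r, whose signal microglia need to survive, fell from between 8.20 and 9.14 to between 5.66 and 7.06 and stayed above it.

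Endothelial genes followed. Of 21 measured (22 listed), 8 were called lower and 1 higher (median -0.69), and 6 lay at background in both kinds of sample. Cldn5, of the tight junctions of brain vessels, ranged from 8.42 to 9.11 in tissue and from 3.81 to 4.21 in culture, at least 12.7-fold lower (adjusted p = 5.85e-23). Aplnr, a receptor of sprouting vessels, ranged from 8.84 to 9.70 in tissue and from 3.20 to 3.42 in culture, at least 19-fold lower. Ramp2 was 6.62-fold lower, Tek at least 2.15-fold and Cdh5 at least 1.36-fold. Kdr, the main VEGF receptor, had no difference beyond the spread (-0.06 ± 0.192), at 7.19 to 9.26 in culture and 8.21 to 8.96 in tissue. The member that was higher, Slco1a4, an organic anion carrier that astrocytes can express as well, was 4.60-fold higher.

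Mural and connective tissue genes divided. Among 14 pericyte and smooth muscle genes 2 were called higher and 5 lower. Those called lower included Abcc9 at 7.08 to 8.12 in tissue and 3.17 to 3.47 in culture (at least 6.08-fold lower), Kcnj8 at least 2.90-fold lower and Rgs5 3.51-fold lower, and 4 of the 14 lay at background in both kinds of sample. Pdgfrb, the receptor that marks pericytes, differed by -0.59 ± 0.168 and was not called, with an adjusted p of 0.00350 that became 0.203 in WT arrays alone and 0.748 with plain-suffix probes. The contractile genes Acta2 and Tagln were 22.2-fold and 11.8-fold higher. Acta2 ranged from 8.97 to 12.29 (median 10.21) in culture and from 5.34 to 6.25 (median 5.78) in tissue (adjusted p = 3.67e-13), and WT litter 2644 held the highest value.

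Of 17 meningeal and fibroblast genes 3 were higher and 6 lower. Fmod, a small proteoglycan that binds collagen, ranged from 9.18 to 12.51 (median 10.92) in culture and from 4.77 to 6.48 (median 5.23) in tissue, 46.5-fold higher (adjusted p = 1.44e-14), and Ogn was 11.3-fold higher. The fibrillar collagens Col3a1 and Col1a2 were at least 3.86-fold and 4.86-fold lower. Dcn spanned 4.81 to 9.20 in culture and 7.76 to 9.33 in tissue (3.26-fold lower, adjusted p = 0.00187) and did not pass in *Fmr1*KO arrays alone (adjusted p = 0.144). Outside the list, Fbln5 and Ltbp2, of elastic fibres, were 27.4-fold and at least 14.7-fold higher, each with its highest culture above 11 log2.

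Choroid plexus genes varied between arrays of both kinds, with a list mean of 5.59 to 6.43 in culture and 5.78 to 6.93 in tissue. Of 16 measured (18 listed), 3 were called higher and 2 lower, and 6 lay at background in both kinds of sample. Ttr, transthyretin, spanned 8.54 to 11.05 in culture and 10.44 to 13.74 in tissue (3.87-fold lower, in 9 of 10 litters). Otx2 was 4.62-fold lower, while Folr1, Cldn2 and Ecrg4 were higher, Ecrg4 4.30-fold. Ependymal genes gave 0 calls among 10, of which 4 lay at background in both kinds of sample. Of 9 erythroid genes 3 were called lower, and 4 lay at background in both kinds of sample. Among the 3 were Alas2 (at least 5.01-fold lower) and the embryonic globin Hbb-y (at least 3.37-fold lower). Hbb-y spanned 4.26 to 9.63 in tissue and 2.94 to 3.11 in culture.

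Genes of the brain's extracellular matrix went both ways, with 2 of 12 called higher and 3 lower. Vcan, versican of the embryonic matrix, ranged from 10.32 to 10.82 (median 10.64) in tissue and from 5.40 to 7.35 (median 6.74) in culture, 15.5-fold lower (-3.95 ± 0.133, adjusted p = 1.58e-17). Hapln1, the link protein of perineuronal nets, ranged from 7.14 to 8.98 in culture and from 3.11 to 4.07 in tissue, at least 7.75-fold higher, and Acan, aggrecan, was at least 1.48-fold higher. Has2, a hyaluronan synthase, was at least 2.81-fold lower. Bcan and Tnr had differences of 0.83 ± 0.128 and 0.75 ± 0.090.

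**Figure D3:**
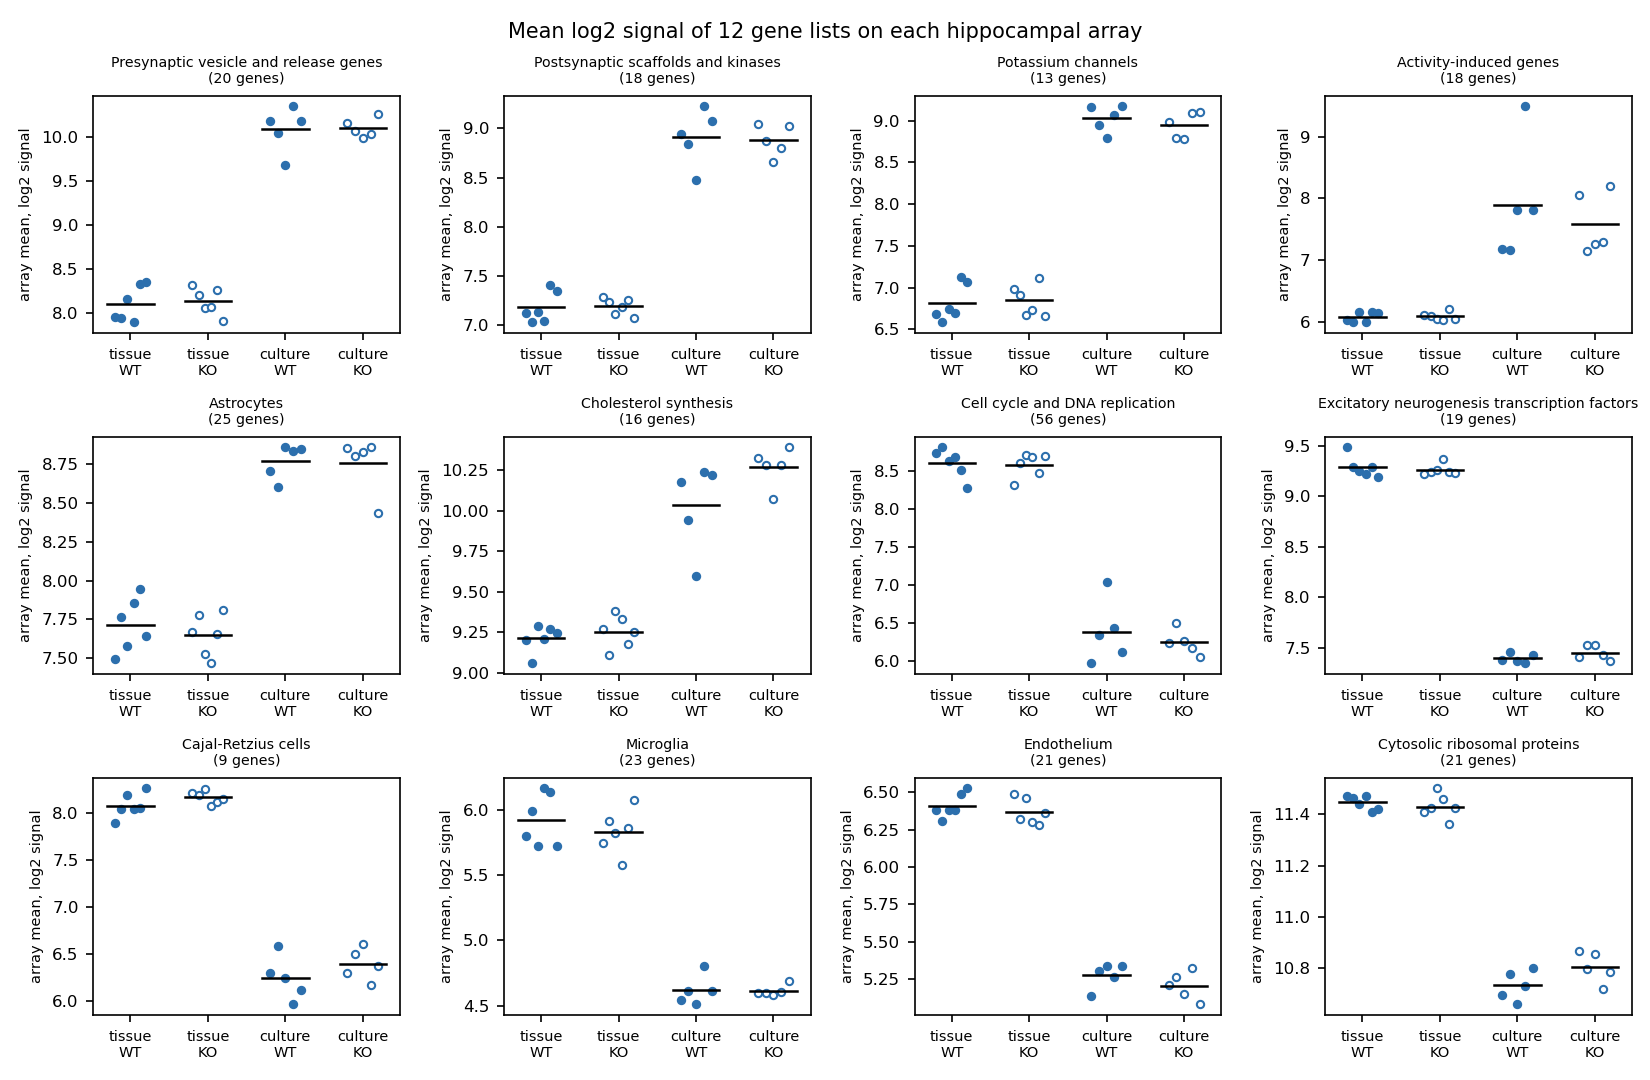
Each circle is 1 array, at the mean log2 signal of the list's measured genes (y axis, a scale of its own in each panel and not starting at 0), and bars are group means of 5 or 6 arrays. Filled circles are WT and open circles *Fmr1*KO, tissue on the left and culture on the right of each panel. Culture and tissue arrays did not overlap in any of the 12 panels, and WT litter 3569 is the high point of the activity-induced genes at 9.49.

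All 16 measured genes of cholesterol synthesis (21 listed) passed upward without the fold limit, against 36% of all genes, and 6 were called (median 0.94). Msmo1, Dhcr7 and Sc5d, of the late steps, were 3.37-fold, 2.94-fold and 2.61-fold higher, and Sqle, squalene epoxidase, was 2.36-fold higher at 11.75 to 12.14 in culture and 10.49 to 10.84 in tissue. Of 22 genes of glycolysis and the hypoxia response 6 were called higher and 2 lower. Eno2, neuron-specific enolase, was 8.87-fold, Pfkp 6.96-fold and the neuronal glucose transporter Slc2a3 6.78-fold higher, while Hk2, the hexokinase of dividing cells, was 4.23-fold lower (tissue 8.45 to 9.04, culture 5.94 to 7.22). Ldha and Vegfa differed by 0.10 ± 0.043 and 0.19 ± 0.111.

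Of 35 subunits of oxidative phosphorylation 29 passed upward and 4 downward without the fold limit, against 36% and 36.1% of all genes. Only Cox8a (2.16-fold) was called higher and Cox7c (2.17-fold) lower, and the median was 0.35. Cytosolic ribosomal protein genes went the other way. Of 21 measured (35 listed), 18 passed downward, against 36.1% of all genes, and 4 were called, Rpl14, Rps6, Rps9 and Rps25. The median of the 21 genes was -0.68. Their mean signal ran from 11.36 to 11.50 in tissue and from 10.66 to 10.87 in culture. Under rescaling to reference genes the medians were 0.53 and -0.51.

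Antioxidant and metal-binding genes were higher in 9 of 17 cases and lower in 1 (median 1.15). Gstm1, a glutathione transferase, was 10.9-fold higher (culture 10.49 to 12.57, tissue 7.52 to 8.28), Mt1, metallothionein, 7.38-fold, and Me1, which makes NADPH, 7.36-fold. Gpx1 was 2.64-fold lower. Among 17 genes of the unfolded protein and integrated stress responses 6 were called higher, among them Asns, asparagine synthetase, at 6.15-fold (culture 10.43 to 10.79, tissue 7.70 to 8.23) and Sesn2 and Chac1 at 3.01-fold and 2.77-fold. Atf4 and Hspa5 differed by 0.43 ± 0.094 and 0.20 ± 0.077, with at least 1 other probe of opposite sign. In the interferon and MHC class I list 3 of 17 were called higher, Tap1, H2-K1 and Ifit3, and 1 lower, Rtp4.

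Genes usually taken as constant differed too. Of 9 reference genes Hprt was 2.07-fold higher, and Tbp and Gusb were 2.01-fold and 3.67-fold lower. Actb differed by -0.11 ± 0.033, with 1 other probe of opposite sign and a difference of 0.06 once arrays were centred on these genes.

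**Figure D4:**
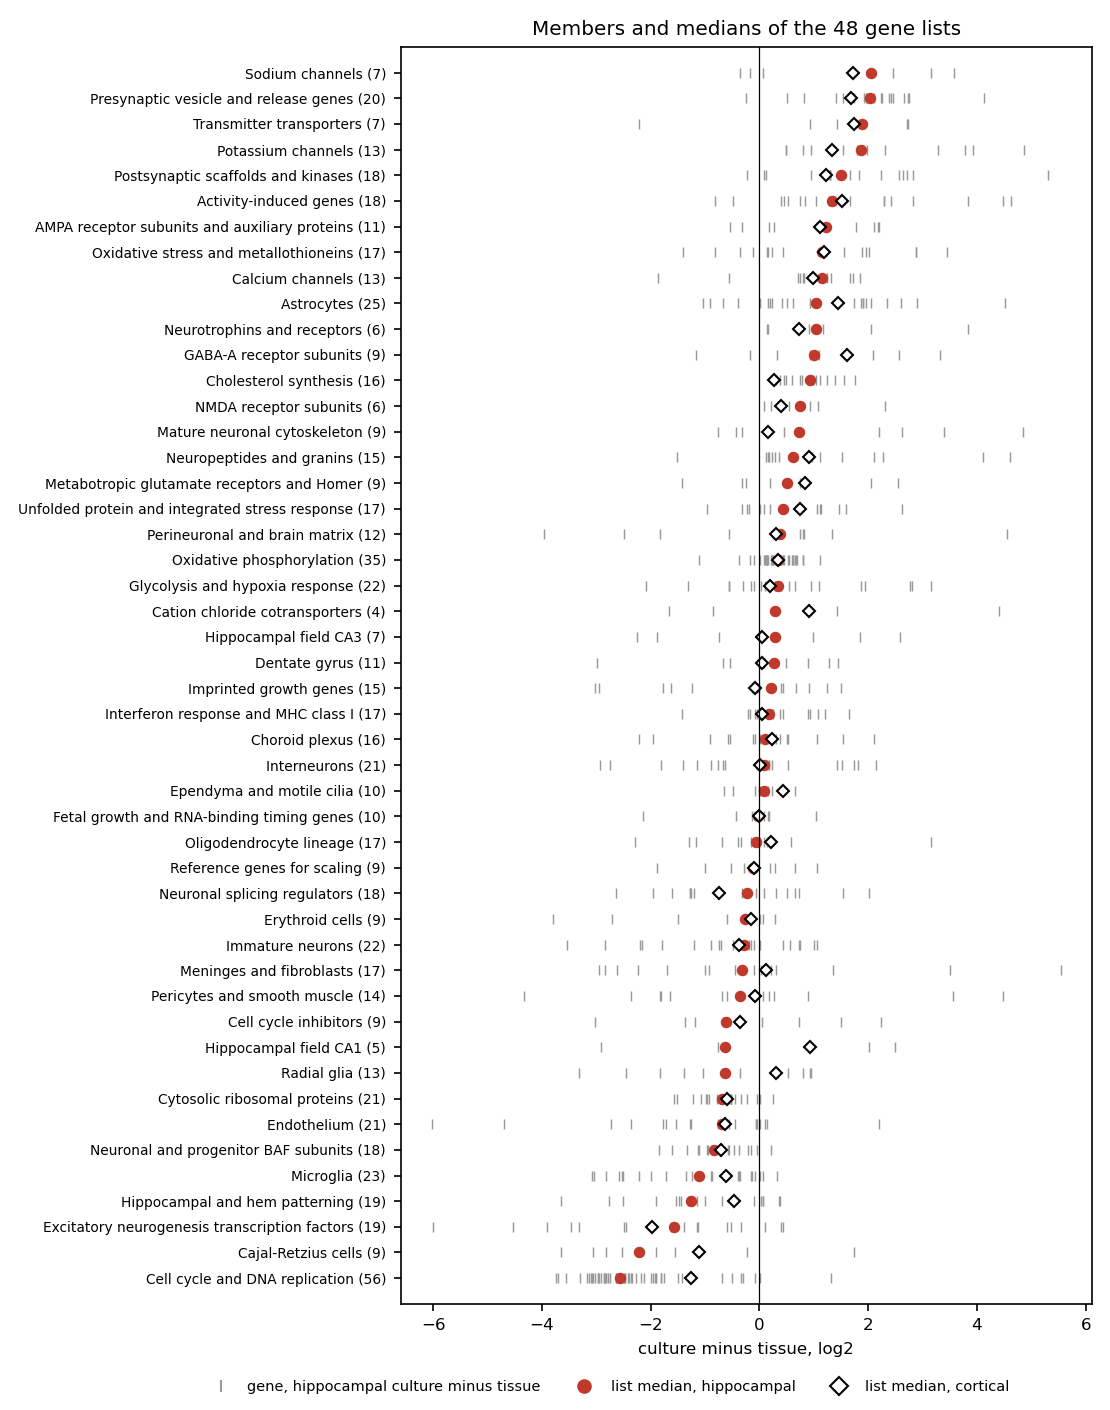
Grey ticks are the culture minus tissue differences (log2, x axis) of the measured genes of 48 lists, red circles the list medians in hippocampus and open diamonds the medians of the same lists between cortical culture and cortical tissue, with the number of genes in brackets. Hippocampal medians run from -2.56 for the cell cycle to 2.05 for sodium channels.

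Several of the largest differences of single genes lay outside these groups. Fam107a (DRR1), an actin-binding protein of neurons and astrocytes, ranged from 10.53 to 12.02 (median 11.36) in culture and from 4.60 to 6.66 (median 4.94) in tissue, 67.3-fold higher (6.07 ± 0.220, adjusted p = 5.6e-17). The tissue median lay below background and the tissue mean just above it, so this fold rests on tissue signals close to background. Vsnl1, a neuronal calcium sensor, was 34.8-fold higher (culture 11.27 to 12.02, tissue 5.41 to 7.55). Among genes at background in tissue, Ptk2b, a calcium-activated tyrosine kinase, and Ryr2, a calcium release channel, were at least 18.5-fold and 18.3-fold higher. The aldehyde oxidase Aox1 was at least 16.5-fold, Rasgef1a at least 17.4-fold and Cracdl at least 21.9-fold higher.

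In the other direction, Draxin, a repulsive guidance cue of commissural axons, ranged from 10.81 to 11.08 (median 10.97) in tissue and from 5.22 to 6.2 (median 5.73) in culture, 37.3-fold lower (-5.22 ± 0.095, adjusted p = 4.44e-22). Frmd4b was 33.7-fold lower (tissue 11.08 to 11.44, culture 5.11 to 7.71). Chromatin genes of dividing cells were among the largest falls, with Ezh2, the Polycomb methyltransferase, 14.7-fold lower (tissue 10.97 to 11.39, culture 6.92 to 7.97) and the helicase Hells 12.3-fold lower. Tead2, a partner of YAP, was 13.4-fold and the antigen-presenting Cd1d1 12.3-fold lower. The lysosomal protease Ctsz, the retinaldehyde-binding Rlbp1, the neuropeptide Tac2 and the transcription factor Tfap2c had culture means at background, at least 23.5-fold, 20.6-fold, 13.6-fold and 12.8-fold lower, as did E130114P18Rik at least 12.9-fold.

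Whether the difference between culture and tissue depended on Fmr1 genotype was tested next. In limma's interaction over the 4 groups 0 genes (0%) passed with a larger and 0 (0%) with a smaller difference in *Fmr1*KO than in WT at an adjusted p under 0.05, and the smallest adjusted p was 0.907. At an unadjusted p under 0.05 there were 880 genes, 4.84% of those tested. The median SE of the interaction was 0.137 log2 among genes above background in both. The list medians in *Fmr1*KO and WT were -2.61 and -2.48 for the cell cycle, 2.07 and 2.10 for presynaptic genes, 1.09 and 0.97 for astrocytes and 0.96 and 0.79 for cholesterol synthesis.

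Cortical samples of the same series, 10 cultures and 10 tissues, were used to ask which differences were particular to hippocampus. Of the genes called in hippocampus, 1071 higher and 1384 lower were also past 2-fold in the same direction between the cortical means. By a test of the difference itself, 308 genes (1.69%) had a hippocampal difference at least 2-fold above the cortical one and 616 (3.39%) at least 2-fold below it.

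The cell cycle list was among those that differed most. Of its 56 genes 33 had a hippocampal difference called lower than the cortical one and 0 one called higher, and the medians were -2.56 and -1.26. The list mean in cortex ran from 7.81 to 8.49 in tissue and from 6.31 to 7.54 in culture. For Mki67 the hippocampal minus cortical difference was -1.81 ± 0.293 (adjusted p = 7.67e-06), with cortical cultures at 7.47 to 9.52. Hippocampal tissue was higher and hippocampal culture lower than their cortical counterparts in the median of the list.

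Many Cajal-Retzius, radial glial and astrocyte genes also had lower differences in hippocampus than in cortex. Among Cajal-Retzius genes 5 of 9 did, among them Lhx1 (-2.42 ± 0.160, adjusted p = 2.07e-14) and Trp73 (-1.61 ± 0.146), both higher in hippocampal than in cortical tissue, while Nhlh2 and Calb2 went the other way. Of 13 radial glial genes 7 had a lower and 0 a higher difference, with medians of -0.64 in hippocampus and 0.31 in cortex. Of 25 astrocyte genes 8 had a lower difference, among them Apoe, the lipid carrier (1.96 against 4.41 in cortex), and Gja1 (0.23 against 2.5). Within hippocampus, however, 13 of the 25 were called higher. The astrocyte list mean had a median of 7.662 in hippocampal and 7.002 in cortical tissue. In culture these medians were 8.831 and 8.631, so the list was not lower in hippocampal culture. For the radial glial list they were 10.018 and 9.312 in tissue and 9.436 and 9.579 in culture. Prox1 had a lower difference in hippocampus (-2.20 ± 0.204 against cortex), where tissue ran from 8.01 to 9.72, while cortical tissue ran from 4.5 to 5.63.

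Other genes rose more in hippocampus. Kcnq5 had a hippocampal minus cortical difference of 3.54 ± 0.217 (adjusted p = 4.18e-15), with cortical tissue at 7.09 to 8.18 and cortical culture at 8.63 to 9.44. Sv2b had one of 1.42 ± 0.150 (adjusted p = 2.11e-09). Sybu, an adaptor of axonal transport, was 2.84-fold higher in hippocampal culture and differed by -0.63 in cortex. Osbpl6 and Cidea rose by 3.07 and 3.25 in hippocampus and differed by 0.11 and -0.25 in cortex. Of 16 cholesterol genes 4 rose further in hippocampus, where the median was 0.94 against 0.26.

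**Figure D5:**
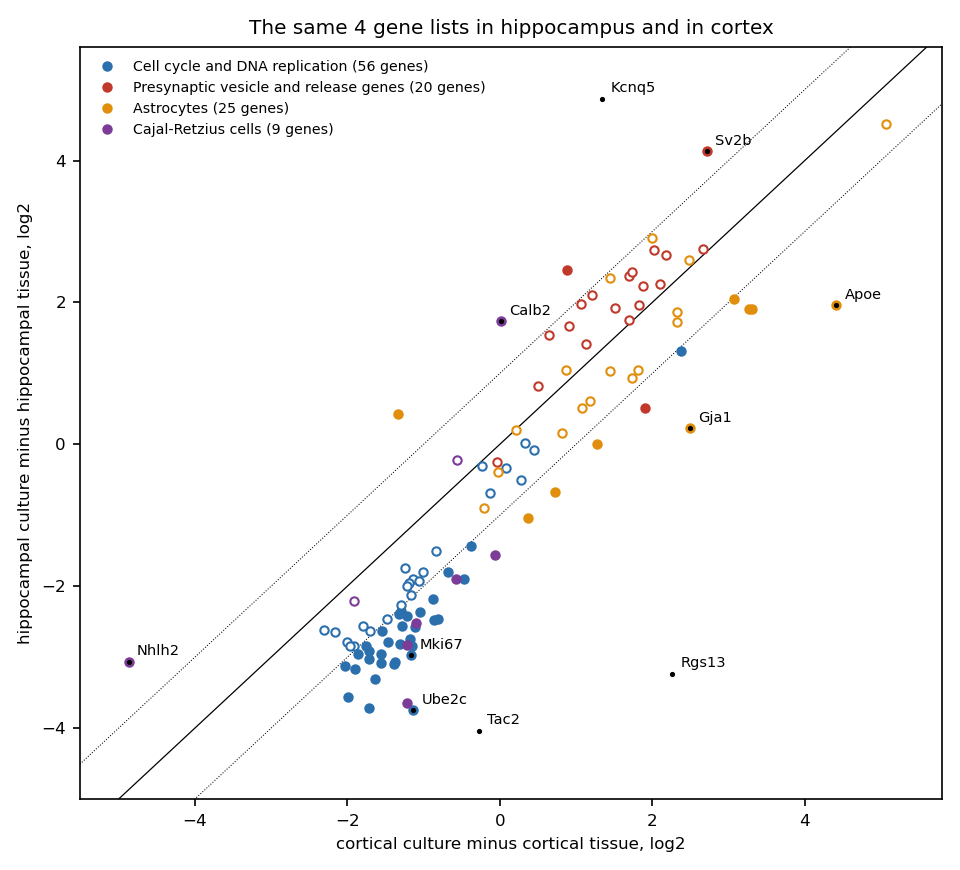
Each circle is a gene of 4 lists, with cortical culture minus cortical tissue (log2) on the x axis and hippocampal culture minus hippocampal tissue (log2) on the y axis. The solid line marks equal differences, dotted lines mark 2-fold apart, filled circles had a called difference between the regions, and black dots mark the named genes. Most cell cycle genes (33 of 56) are filled and lie below the lower dotted line, Mki67 and Ube2c among them.

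Among the genes with the smallest p for a deeper hippocampal fall, Rgs13, a regulator of G protein signalling, ranged from 6.06 to 7.29 in hippocampal tissue and from 3.27 to 3.64 in culture. In cortex Rgs13 ran the opposite way, from between 3.0 and 3.27 in tissue to between 4.88 and 6.16 in culture (hippocampal minus cortical difference -5.49 ± 0.205, adjusted p = 2.04e-21). Sp5, a target of Wnt signalling, and E330013P04Rik were at background in both cortical kinds of sample and fell at least 6.29-fold and 9.87-fold in hippocampus. Ephb3, a receptor of ephrins, was 2.37-fold lower in hippocampal culture and higher by 0.74 in cortical culture. Ltbp1, which stores latent TGF-beta, differed by -3.85 in hippocampus and by -1.44 in cortex. Oma1, a mitochondrial protease, was instead among the genes with a higher hippocampal difference. It differed by 0.23 ± 0.068 in hippocampus and by -1.84 in cortex.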

How the data were processed

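RNA of 42 samples was hybridized to 1-colour Affymetrix mouse genome arrays, so precision rests on the number of arrays. The authors deposited log2 values summarised by RMA, per the labels; the RMA version, and which arrays were normalized together, are not given in the sources used here. Of 45101 probes, 64 controls were left out and 45037 tested. 34945 probes had 1 gene in the platform annotation, 932 several and 9160 none, and 18032 of 18193 genes were matched to RefSeq. The single-gene probe with the highest mean over the 22 arrays stood for a gene. No column of per-sample values was left unused.

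Culture and tissue were compared with limma 3.58.1 (R 4.3.3; lmFit and eBayes, genotype as covariate, Benjamini-Hochberg over all tested probes), and adjusted p-values below are from it. The script was tested on simulated data. Python 3.11.15, NumPy 2.4.6, pandas 2.3.3, SciPy 1.17.1 and Matplotlib 3.10.9 made summaries and figures. The arrays compared and the gene lists were chosen with earlier results of these data known. Of 784 listed genes 714 were measured, and the rest were not analysed here.

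Genes were named by rule: the 12 largest rises and falls without overlap and above background in both kinds of sample, the 8 largest bounds each way, the first 3 and up to 4 most changed members each way of each list, the 5 smallest p each way for a called interaction or regional difference, and Fmr1. Apoe, Gja1, Csf1r, Kdr, Sox10, Sox6, Pvalb and Vip were named after their values were seen.

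The methods took tissue from the dissections that gave the cultures, so a shared mouse ID was read as a shared litter. Deviations of paired arrays from their group means correlated at -0.114 to 0.185 (10 pairs). Each culture was set against the 5 paired tissue arrays of its genotype, and 2 of 10 correlated best with their own litter. Chance alone would give about as many. With litter as a random block the correlation within litters was 0.0055. The signals thus gave no support for the pairing, which rests on the methods and the labels. The alternatives were the fitted arrays, litter as a block, variance model, array weights, normalization, low-value filter, probe choice, genotype and each array left out. Leaving out WT litters 2644 and 3569 together was chosen after seeing the data.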

Additional observations from a re-analysis of the deposited data

Results flagged for a closer look

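In 41 genes and 164 groups of arrays, 4 groups held 1 array far from the others, where chance gives about 1 in 20 groups. Camk2a was at 8.685 log2 in the tissue of WT litter 3569, with the next array at 7.51. Vcan was at 5.398 in the culture of WT litter 3569, the next lowest being 6.388. Tfap2c was at 5.683 in the culture of *Fmr1*KO litter 2038, with the next at 4.755, and Aqp4 at 8.166 in the culture of *Fmr1*KO litter 4236, the next lowest being 9.022.

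The culture difference differed between hippocampus and cortex, by limma's test of the difference of differences, for 308 genes in the higher and 616 in the lower direction. The genes with the smallest p were, with a higher hippocampal difference, Sybu at 2.139 log2, Kcnq5 at 3.536, Osbpl6 at 2.968, Cidea at 3.505 and Oma1 at 2.067. With a lower hippocampal difference they were Rgs13 at -5.492, E330013P04Rik at -3.48, Ephb3 at -1.991, Sp5 at -2.924 and Ltbp1 at -2.41. Causes of these values were not tested.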

How the results depend on the processing

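Leaving out each array in turn gave 1488 to 1547 genes called higher and 1944 to 2010 lower, and the other settings 1377 to 1909 and 1505 to 2199. The interaction with genotype gave 0 calls in each setting in which it was run (it was not run within 1 genotype, with the probe of smallest p or without both cultures together). Centring arrays on reference genes raised the count higher at an adjusted p under 0.05, without a fold limit, from 6551 to 10347, as it shifts all genes upward. With litter as a replicate block 1512 genes were called higher and 1951 lower. In that fit, tissue arrays without a culture of their litter do not inform the difference. Among named genes Wnt8b did not pass in it (-0.53, adjusted p = 0.132), while Actl6b did (adjusted p = 0.0382).

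Some values changed sign. With arrays centred on reference genes the medians of fetal timing genes, the oligodendrocyte lineage and reference genes were 0.1555, 0.1189 and 0.06381, Actb was at 0.06381 and Lin28b at 0.1152. With probes at background left out the medians of interneurons and fetal timing genes were -0.675 and 0.0856. With the probe of smallest p fetal timing genes had a median of 0.02433, Hspa5 was at -0.4723 and Atf4 at -0.4954. With plain-suffix probes the medians of fetal timing, splicing and reference genes were 0.01126, 0.04946 and 0.2818, Actb was at 0.2818, Smarcb1 at 0.1277 and Ptbp1 at 0.01139. In *Fmr1*KO arrays alone the interneuron median was -0.02391, and in WT arrays alone those of fetal timing and choroid plexus genes were 0.03565 and -0.06063. Medians that moved by over 1.5 times without a change of sign included the mature cytoskeleton to 2.195 and splicing to -0.798 with the probe of smallest p, endothelium to -1.28 and pericytes to -1.166 with probes at background left out, pericytes to -0.07468 with plain-suffix probes, and the dentate gyrus from 0.28 to 0.08435 without culture WT litter 2644. The causes were not tested. Signals at background limit folds to bounds.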
